A study of Mus musculus with 6 samples.

Results

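The p53 pathway genes described here are Cdkn1a, Mdm2, Trp53, Ccng1, Eda2r, Phlda3, Rrm2b and Bax, and their accessible chromatin was compared between NIH3T3 mouse fibroblasts with an active ribozyme and NIH3T3 cells with an inactive ribozyme. The members were all regions of the ATAC-seq table that carry one of these 8 gene symbols, plus the regions with no gene symbol within 50 kb of the listed span of such a gene. This gave 39 of 52957 regions: 7 promoter regions, centred at most 1000 bp from the listed start site, 5 gene regions farther from it, and 27 nearby distal regions. In both groups a T3H48 hammerhead ribozyme, an RNA that cuts itself, had been inserted into intron 3 of Actg1, the gene of gamma-actin, and 3 libraries were made per group. The active form was meant to cut the Actg1 pre-mRNA and the inactive form was not, and by its title the study concerns a transcriptional response to such destabilised RNA. The cells are given as stable lines. The sources used here do not tell whether replicate libraries stem from separate cultures or clones. The p-values therefore cover the spread among these 6 libraries alone, and that spread may be technical. Ribozyme activity and the history of the lines cannot be told apart.

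The transcription factor p53, encoded by Trp53, is kept low in unstressed cells by the ubiquitin ligase Mdm2, whose own gene is a p53 target, and is stabilised after DNA damage and other stress. Its targets halt the cell cycle (Cdkn1a), feed back on Mdm2 (Ccng1), restrain survival signals or promote cell death (Phlda3, Eda2r, Bax) and supply nucleotides for repair (Rrm2b). Accessibility of a promoter is not a measure of its transcription, and RNA was not analysed here.

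ATAC-seq records where the enzyme Tn5 could insert adapters into DNA. The deposited unit is a score, and the values below are read as normalised reads per region, judged from the values alone. Normalised totals ranged from 6477397 to 6548535 in active and from 6433944 to 6527654 in inactive libraries. Reads before scaling, an estimate from how often each whole number occurs, ranged from 3710000 to 6840000 in active and from 7330000 to 8960000 in inactive libraries, so low regions carry more counting error in the active group. Promoter regions were tested for 8 of 10 fibroblast markers, and their summed signal was 2225 to 2392 in active and 2776 to 2850 in inactive libraries. Of these, 5 fell and 2 rose (Col1a2 and Twist1) as normalised, where 37.6% of all promoter regions fell and 21% rose. After centring on 10 Mb windows 6 were lower, among them Col1a2 and Twist1, and 0 higher. The shares of all promoter regions were then 24.6% lower and 12% higher. Vim, with the highest signal, averaged 669 normalised reads in active and 986 in inactive libraries. Of 10 markers of epithelial, haematopoietic and endothelial cells, 3 had a promoter region. Krt8 stood at 134 to 171 in active and 78 to 89 in inactive libraries, Cd68 at 51 to 69 in active and 51 to 57 in inactive libraries, and Kdr at 74 to 82 in active and 5 to 9 in inactive libraries. No promoter region of Epcam, Cdh1, Krt18, Ptprc, Spi1, Pecam1 or Cdh5 was analysed. The part of these differences in the results below was not tested.

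The stretches upstream of the start sites are shown for the genes on which the results turn: Cdkn1a, the best-studied p53 target, with its alternative starts, Ccng1, and Eda2r, whose promoter region had the largest change of the 7 promoter regions. Sequences of 250 bases before the start came from RefSeq, build GRCm38.p6, in which 7 of the 8 genes had at least 1 entry (Rrm2b was not matched). The regions of the table lie on mm39, and no coordinate was carried from one build to the other. In the lines of the upstream Cdkn1a start and of Ccng1, capitals mark the match to a p53 response element, a pair of 10-base motifs at most 1 base apart with at most 3 mismatches in all. In the lines of the downstream Cdkn1a start and of Eda2r, capitals mark the GC box GGGCGG, the CCAAT box and the TATA box, searched as TATAAA, on either strand. The sequences run 5′ to 3′ on the gene's strand.
Cdkn1a, upstream start (chr17:29090729-29090978, plus strand): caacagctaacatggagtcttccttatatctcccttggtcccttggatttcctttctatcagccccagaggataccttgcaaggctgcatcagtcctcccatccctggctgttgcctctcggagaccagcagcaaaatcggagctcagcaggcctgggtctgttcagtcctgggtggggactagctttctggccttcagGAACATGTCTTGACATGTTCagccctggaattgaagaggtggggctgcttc
Cdkn1a, downstream start (chr17:29093519-29093768, plus strand): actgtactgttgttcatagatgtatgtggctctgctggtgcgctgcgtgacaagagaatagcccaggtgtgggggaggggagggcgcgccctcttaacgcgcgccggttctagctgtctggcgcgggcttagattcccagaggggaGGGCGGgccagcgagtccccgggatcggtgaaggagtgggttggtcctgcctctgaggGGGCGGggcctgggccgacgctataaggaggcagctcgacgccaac
Ccng1 (chr11:40755287-40755536, minus strand): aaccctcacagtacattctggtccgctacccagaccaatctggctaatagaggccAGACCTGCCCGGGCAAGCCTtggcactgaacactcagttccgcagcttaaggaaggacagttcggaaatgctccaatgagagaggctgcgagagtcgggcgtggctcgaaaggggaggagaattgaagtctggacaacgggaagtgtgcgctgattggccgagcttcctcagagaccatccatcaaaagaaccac
Eda2r (chrX:97377210-97377459, minus strand): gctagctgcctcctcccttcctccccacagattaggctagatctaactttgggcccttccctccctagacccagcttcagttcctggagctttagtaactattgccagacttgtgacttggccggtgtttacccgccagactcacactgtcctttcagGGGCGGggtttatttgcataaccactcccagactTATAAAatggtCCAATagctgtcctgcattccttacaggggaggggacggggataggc

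A p53 element match lay 51 bases before the upstream start of Cdkn1a and 195 bases before that of Ccng1, with 1 mismatch in each. Weaker matches were found before Bax (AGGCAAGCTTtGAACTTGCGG, first base 201 bases before the start, 2 mismatches, with the lower-case letter between the motifs) and Trp53 (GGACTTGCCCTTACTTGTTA, 75 bases before, 3 mismatches). No match was found in these windows of Mdm2, Eda2r, Phlda3 or at the downstream start of Cdkn1a. Sequence after the start sites, introns included, was not searched, so elements there would be missed. Of 32851 RefSeq windows of the same length, 2.28% held such a match and 0.551% held one with at most 2 mismatches. A match describes letters and is not a measured binding site. The box GGGCGG was present in 32.7% of windows, CCAAT in 33.8% and TATAAA in 12.4%. All 3 boxes occurred before Eda2r, while the upstream Cdkn1a window held none of them and the downstream Cdkn1a window held GGGCGG 2 times.

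Of the 38 member regions tested, 25 fell and 4 rose, while of all 51253 tested regions 60.1% passed the same threshold, 29.2% lower and 30.9% higher.

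At the start sites of these genes, chromatin was mostly less accessible in cells with the active ribozyme. Of the 7 promoter regions, 6 fell (Trp53, Mdm2, Ccng1, Phlda3, Eda2r and Bax) and 1 rose (Rrm2b), at an adjusted p under 0.05 by limma over all 51253 tested regions. Among all 9650 promoter regions tested, 58.6% passed the threshold, 37.6% lower and 21% higher. The median log2 fold change was -0.36 over the 7 member regions and -0.11 over all promoter regions. Of the 5 gene regions off the promoter, 4 fell and 0 rose, where 58.3% of all such regions passed, 32.5% lower. Groups did not overlap in any of the 7 promoter regions: the active libraries all lay below the inactive ones in 6, as in 39.2% of all promoter regions, and above them at Rrm2b, as in 21.8%.

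**Figure D1:**
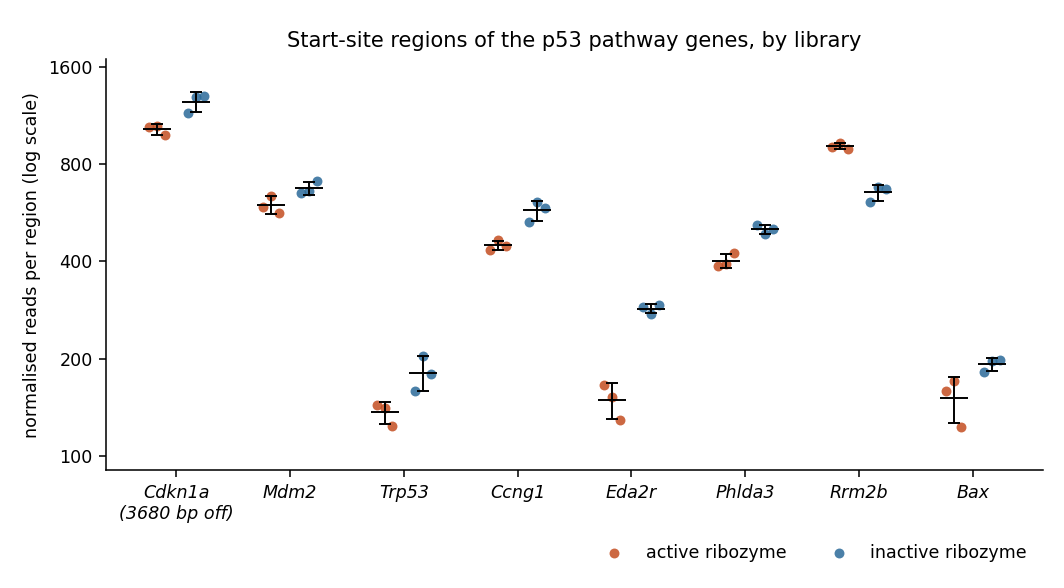
Normalised reads (log axis) in each library at the promoter region of each gene, and at the only Cdkn1a region, 3680 bp from the listed start. Points are libraries, bars give the mean and SD of 3 libraries. Active libraries lie below inactive ones at every gene but Rrm2b, where active libraries lie between 895 and 935 and inactive libraries between 612 and 679.

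Trp53, the gene of p53 itself (chromosome 11, 69471185 to 69482699), had a promoter region 37 bp from its start, at 69470866 to 69471430. It held 144, 141 and 124 normalised reads in active libraries and 159, 204 and 179 in inactive libraries. All active values were below all inactive values, and the region fell by 0.40 on the log2 scale (± 0.10 SE, 3 libraries per group, limma adjusted p = 8.96e-04). A second Trp53 region, 1075 bp into the gene at 69472071 to 69472449, held 84, 76 and 69 in active and 118, 140 and 115 in inactive libraries. Its groups did not overlap either, and it fell by 0.70 (± 0.12 SE, adjusted p = 7.04e-06 by limma). Wrap53 starts close to Trp53 on the opposite strand, and its span lay 67 bp from the centre of the promoter region, so that signal of the shared promoter cannot be assigned to either gene.

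Mdm2, the ligase that marks p53 for degradation (chromosome 10, 117524780 to 117546663), had its promoter region at 117545761 to 117546943. It held 590, 640 and 567 normalised reads in active libraries and 652, 663 and 711 in inactive libraries. The groups lay close without overlapping, and the region fell by 0.17 (± 0.06 SE, adjusted p = 7.47e-03 by limma), the smallest change of the 7 promoter regions. The call did not hold without active replicate 3 or inactive replicate 3, nor in limma without trend, with adjusted p from 7.43e-04 to 0.16 over 12 alternatives.

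Cdkn1a encodes p21, the inhibitor of cyclin-dependent kinases through which p53 stops the cell cycle (chromosome 17, 29309950 to 29319701). No region centred within 1000 bp of its listed start was analysed, and the only region with its symbol was a wide one inside the gene, 3680 bp from the start, at 29312486 to 29314774. This region began 2536 bp and ended 4824 bp after the listed start, and on GRCm38.p6 the RefSeq starts of Cdkn1a lie 2790 bp apart. The region may thus span the downstream start, though no coordinate was carried between builds. It held 1045, 1053 and 984 normalised reads in active and 1153, 1298 and 1303 in inactive libraries. It fell by 0.28 (± 0.05 SE, adjusted p = 1.64e-06 by limma), with no overlap between groups, and it had the most normalised reads of the 39 regions.

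Ccng1 encodes cyclin G1, a p53 target that recruits a phosphatase to Mdm2 (chromosome 11, 40639379 to 40646138). Its promoter region at 40645611 to 40646514 held 435, 465 and 446 normalised reads in active and 530, 610 and 588 in inactive libraries. All active values were lower, and the region fell by 0.36 on the log2 scale (± 0.06 SE, adjusted p = 3.25e-06 by limma).

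Among the genes that act on survival and death, the largest promoter change was at Eda2r. Eda2r encodes a receptor of the TNF receptor family for ectodysplasin A2 (chromosome X, 96377446 to 96420822). Its promoter region at 96419960 to 96421036 held 166, 152 and 129 normalised reads in active and 289, 275 and 293 in inactive libraries. The ratio of group means was 0.522, and the region fell by 0.94 (± 0.09 SE, adjusted p = 7.95e-12 by limma), at percentile 2.52 of the changes of all promoter regions. A region 4163 bp from the start, at 96416525 to 96416792, held 65, 67 and 76 in active and 80, 103 and 93 in inactive libraries. It fell by 0.40 (adjusted p = 0.0109), a call that was lost after centring values on the median of the gene's 10 Mb window and without inactive replicate 2 (adjusted p from 2.66e-03 to 0.138 over 12 alternatives).

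Phlda3 encodes a pleckstrin-homology protein that competes with Akt for membrane lipids and so restrains survival signals (chromosome 1, 135693857 to 135696874). Its promoter region at 135693416 to 135694411 held 387, 392 and 425 normalised reads in active and 520, 487 and 503 in inactive libraries, which did not overlap, and fell by 0.33 on the log2 scale (± 0.06 SE, adjusted p = 2.02e-05 by limma). The region 5310 bp from the start held 486, 504 and 496 in active and 546, 590 and 572 in inactive libraries and fell by 0.20 (adjusted p = 2.85e-03), a call lost in limma without trend (adjusted p from 2.26e-03 to 0.0846 over 12 alternatives). By contrast the narrow region 1840 bp before the start held 56, 78 and 81 in active and 67, 66 and 67 in inactive libraries. Its groups overlapped, and its change was 0.08 ± 0.15 (SE, adjusted p = 0.641).

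Bax, which permeabilises the outer mitochondrial membrane in apoptosis (chromosome 7, 45111121 to 45116322), had 1 region, at 45115776 to 45116579. It held 159, 170 and 123 normalised reads in active and 182, 197 and 198 in inactive libraries and fell by 0.36 (± 0.10 SE, adjusted p = 2.31e-03 by limma). Active replicate 3 was the lowest library. Without it the change was -0.22 and the call was lost, as it was in limma without trend, with adjusted p from 1.55e-04 to 0.0701 over 12 alternatives.

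Rrm2b, the p53-induced small subunit of ribonucleotide reductase (chromosome 15, 37924196 to 37961562), was the exception. Its promoter region at 37960832 to 37961812 held 908, 935 and 895 normalised reads in active and 612, 679 and 673 in inactive libraries. All active values exceeded all inactive ones, and the region rose by 0.48 (± 0.05 SE, adjusted p = 1.27e-10 by limma), at percentile 92.1 of the changes of all promoter regions.

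Levels were compared between genes as normalised reads per kb of region. In active libraries the promoter of Rrm2b had the highest level (930.3 ± 20.8, SD, n = 3), followed by Mdm2 (506 ± 31.5), Ccng1 (496 ± 16.8), Phlda3 (403 ± 20.7), Trp53 (241 ± 19.1), Bax (187 ± 30.6) and Eda2r (138 ± 17.3). The inactive libraries gave 667 ± 37.8 for Rrm2b, 637 ± 45.7 for Ccng1, 571 ± 26.5 for Mdm2, 505 ± 16.6 for Phlda3, 320 ± 39.9 for Trp53, 265 ± 8.78 for Eda2r and 239 ± 11.1 for Bax. Mdm2 and Ccng1 differed by less than 1 SD in active libraries, and Rrm2b and Ccng1 did so in inactive libraries. The Cdkn1a region had 449 ± 16.5 in active and 547 ± 37.2 in inactive libraries on the same scale.

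At the Cdkn1a region and the Trp53 promoter, the calls did not hold against the shift of the surrounding chromosome. That shift was taken as the median log2 fold change of the tested regions in the 10 Mb window of the gene. At Cdkn1a the window from 20 to 30 Mb of chromosome 17 had a median of -0.24 over 416 regions, of which 220 fell and 48 rose. With values centred on their windows in each library, the change of the Cdkn1a region was -0.05 ± 0.04 (SE) and no longer passed the threshold (adjusted p = 0.328 by limma, with 2.93e-07 to 0.328 over 12 alternatives). The Trp53 window had a median of -0.26 over 347 regions, and the centred Trp53 promoter stood at -0.16 ± 0.10 (adjusted p = 0.179, the highest of 12 alternatives, which began at 5.38e-04). The Trp53 region inside the gene remained lower after centring (-0.46 ± 0.12, adjusted p = 1.95e-03, with 1.34e-06 to 4.23e-03 over 12 alternatives).

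The other 6 promoters kept their direction and their call after centring. Eda2r stood at -0.78 (window median -0.14), Phlda3 at -0.30 (window median -0.04), Bax at -0.27 (window median -0.13), Ccng1 at -0.26 (window median -0.09) and Mdm2 at -0.14 (window median -0.08). The Rrm2b window was shifted up, with a median of 0.20 over 222 regions, and the centred Rrm2b promoter was at 0.26 (adjusted p = 3.84e-05 by limma, with 1.65e-12 to 4.84e-03 over 12 alternatives). Thus 5 of 7 promoter regions were lower and 1 higher than their surroundings, where 24.6% of all promoter regions were lower, 12% higher and 36.6% either. Of the 5 gene regions off the promoter, 2 were lower after centring, where 25.3% of all such regions were.

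The width of the surroundings mattered at Ccng1. Within 2 Mb of Ccng1 there were 22 other tested regions, and their median log2 fold change was -0.73, a larger fall than that of the Ccng1 promoter. The same measure was 0.03 at Mdm2, -0.18 at Cdkn1a, -0.24 at Trp53, -0.27 at Eda2r, -0.15 at Bax and 0.26 at Rrm2b, and -0.0028 at Phlda3. The changes of the Eda2r, Bax, Phlda3, Mdm2 and Trp53 promoter regions lay below these medians, and those of Rrm2b and Ccng1 lay above them. Differences from the 2 Mb medians were not tested.

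**Figure D2:**
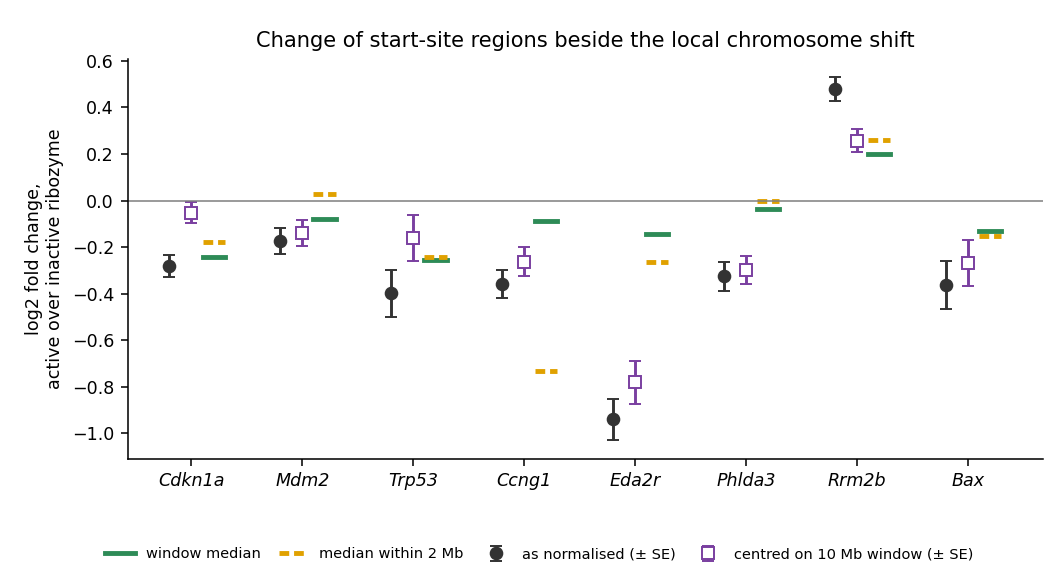
Log2 fold change, active over inactive, at the promoter region of each gene (for Cdkn1a its only region), as normalised and after centring on the 10 Mb window, each with SE, beside the median change of the window and of other regions within 2 Mb. Eda2r (-0.94) lies far below its surroundings, Cdkn1a (-0.28) lies near its window median of -0.24, and Ccng1 lies above the 2 Mb median of -0.73.

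Nearby distal regions were also mostly less accessible with the active ribozyme. Of 27 such regions 26 were tested, and 15 fell, 3 rose and 8 did not pass the threshold. Among all tested regions without a gene symbol, 60.6% passed, 26.7% lower and 34% higher. The active libraries all lay below the inactive ones in 18 of the 27 and above them in 4, as in 27.8% and 34.9% of all such regions. A change of at least 1 on the log2 scale was called in 5, and in 24.7% of all such regions. The median change was -0.41 over the 26 and 0.04 over all regions without a symbol. Centred on windows, 13 were lower and 4 higher, where 24.2% of all such regions were lower, 30.8% higher and 55% either. Of the 27, 10 carried an Ensembl gene identifier of a non-coding RNA or pseudogene without a symbol, and they lay at Cdkn1a and Rrm2b. No nearby distal region was found at Trp53 or Bax. These regions share neighbours and are not independent of each other.

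At Cdkn1a, 5 of 8 tested nearby regions fell and 1 rose, where 26.7% of all regions without a gene symbol fell and 34% rose. After centring, 4 of the 8 were lower and 2 higher, where 24.2% and 30.8% of all such regions were. The region at 29267778 to 29268364 was then higher (0.44, adjusted p = 6.56e-04 by limma), and the fall at 29277021 to 29277359 lost its call (-0.23, adjusted p = 0.147). Upstream of the gene by 37.0 kb, at 29272834 to 29273132 and 673 bp from the start of a long non-coding RNA gene without a symbol, a region held 21, 16 and 35 normalised reads in active and 81, 72 and 83 in inactive libraries. It fell by 1.74 on the log2 scale (± 0.20 SE, adjusted p = 1.76e-09 by limma). Downstream of the gene, 43.5 kb from its start at 29353249 to 29353725, a region annotated to a processed pseudogene held 15, 23 and 23 in active and 61, 49 and 64 in inactive libraries and fell by 1.48 (adjusted p = 7.56e-08). In between, 21.7 kb before the start at 29288137 to 29288400, a region rose, with 45, 37 and 34 in active and 11, 15 and 17 in inactive libraries. Its log2 fold change was 1.38 ± 0.24 (SE, adjusted p = 5.96e-06). None of these 3 groups of values overlapped, and all 3 regions kept their calls after centring.

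The nearby region of Cdkn1a with the most normalised reads lay 11955 bp upstream, at 29297594 to 29298396, 158 bp from the start of another unnamed long non-coding RNA gene. It held 230, 219 and 253 normalised reads in active and 338, 343 and 353 in inactive libraries and fell by 0.56 (± 0.08 SE, adjusted p = 3.36e-08 by limma). It was still lower after centring (-0.33, adjusted p = 3.88e-04, with 2.17e-09 to 3.27e-03 over 12 alternatives). One low region near the gene, with 10, 5 and 19 in active and 8, 5 and 1 in inactive libraries, was not tested.

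Phlda3 had the other large losses among nearby regions. At 26.6 kb before its start (135667055 to 135667465), inside the span of Csrp1, a region held 7, 5 and 16 normalised reads in active and 48, 53 and 45 in inactive libraries. It fell by 2.41 (± 0.29 SE, adjusted p = 3.16e-09 by limma), the largest change of all 38 tested member regions. The nearby region with the most normalised reads, 10.4 kb before the start at 135682957 to 135684015, lay 3516 bp outside the Csrp1 span. This region held 311, 302 and 267 in active and 606, 655 and 663 in inactive libraries and fell by 1.13 (± 0.07 SE, adjusted p = 3.93e-18). Of all tested regions without a gene symbol, 26.7% fell and 34% rose. Of 9 nearby regions of Phlda3, 3 fell, 1 rose and 5 did not pass. The rise was that of a low region 22.8 kb before the start, with 19, 21 and 15 in active and 9, 11 and 11 in inactive libraries (0.76 ± 0.32 SE). Its call was lost with quantile normalization and without any 1 library other than active replicate 3 (adjusted p from 6.89e-03 to 0.132 over 12 alternatives).

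The 4 nearby regions of Rrm2b, all downstream of the gene and 55.2 to 86.8 kb from its start, fell while its promoter rose. Their log2 fold changes ranged from -0.62 to -0.35, and their summed signal was 300, 313 and 295 normalised reads in active and 428, 426 and 430 in inactive libraries. The one with the most normalised reads, at 37898978 to 37899449, held 139, 120 and 113 in active and 187, 189 and 194 in inactive libraries and fell by 0.62 (adjusted p = 1.20e-06 by limma). Centring on the raised window took these changes to between -0.84 and -0.57. Without centring, the call of the region at 37899986 to 37900359 was lost without any 1 library other than active replicate 2 (-0.35). Its adjusted p by limma ran from 4.83e-04, after centring, to 0.0762 over 12 alternatives. Likewise the call of the region at 37906097 to 37906547 (-0.43) was lost without active replicate 2 or inactive replicate 1. There the adjusted p ran from 1.33e-03, after centring, to 0.150.

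Upstream of Mdm2, neighbouring regions changed in opposite directions. At 7.01 kb before the start (117553374 to 117553966), normalised reads were 219, 219 and 195 in active and 287, 272 and 273 in inactive libraries, and the region fell by 0.39 (adjusted p = 5.18e-05 by limma). At 10.9 kb before the start (117557274 to 117557850), values were 218, 209 and 207 in active and 176, 175 and 168 in inactive libraries, a rise of 0.29 (adjusted p = 4.42e-03). Groups overlapped in neither, and both calls held in all 12 alternatives.

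Ccng1 had 1 nearby region, 35.2 kb upstream at 40681070 to 40681651, with 120, 104 and 99 normalised reads in active and 149, 170 and 133 in inactive libraries. It fell by 0.48 (adjusted p = 3.34e-04 by limma). Of the 2 nearby regions of Eda2r, the one 7977 bp inside the gene, at 96412495 to 96413196, held 65, 60 and 52 in active and 65, 56 and 72 in inactive libraries, which overlapped (-0.12 ± 0.15 SE, adjusted p = 0.507). The other, beyond the end of the gene at 96371529 to 96372015, held 48, 51 and 44 in active and 69, 69 and 62 in inactive libraries and fell by 0.48 (adjusted p = 7.91e-03), a call not kept after centring (-0.32).

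**Figure D3:**
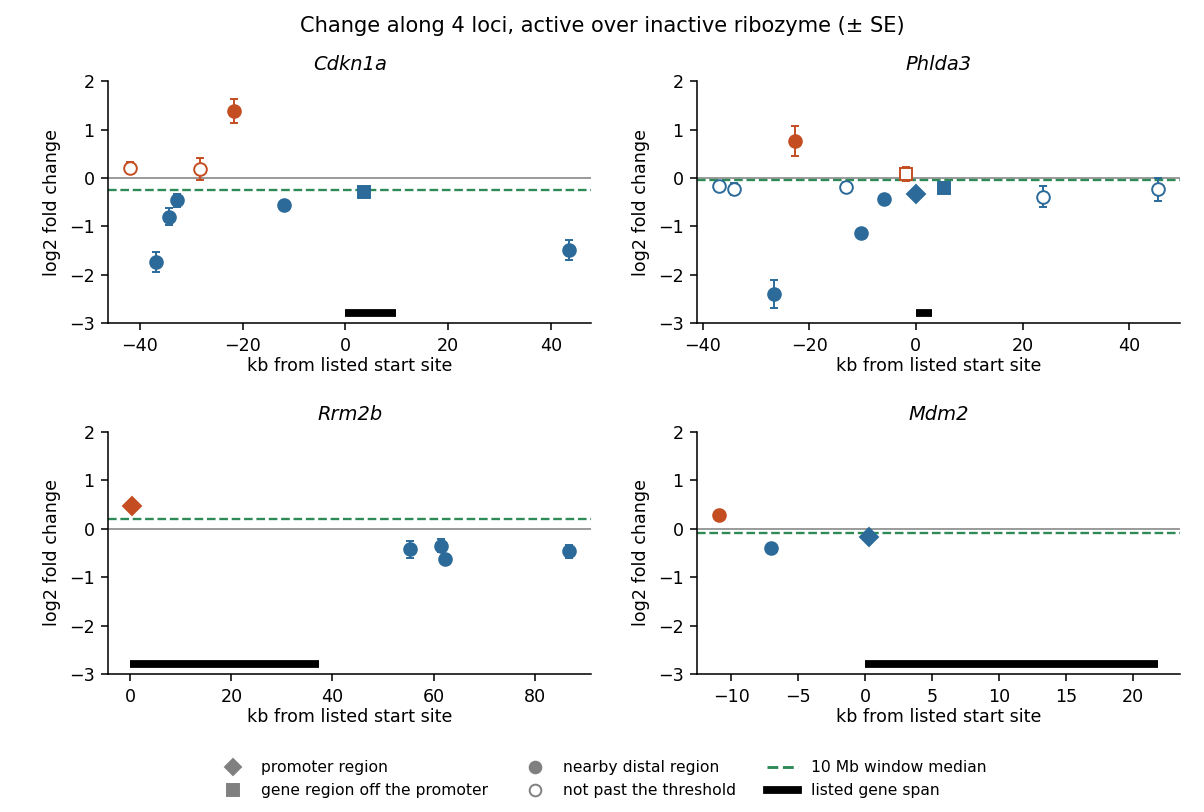
Log2 fold change with SE of every tested member region against its distance in kb from the listed start site, for Cdkn1a, Phlda3, Rrm2b and Mdm2. Diamonds are promoter regions, squares gene regions farther off, circles nearby distal regions, open symbols did not pass the threshold, blue is below 0 and orange above, the dashed line is the 10 Mb window median and the black bar the gene span. The deepest losses, -2.41 near Phlda3 and -1.74 near Cdkn1a, lie away from the start sites, and Rrm2b shows a raised promoter with 4 lowered regions downstream.

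Among other genes of the pathway, the shares that rose and fell were close to those of all promoter regions. Over 50 promoter regions of 47 regulators, targets and growth arrest genes, 12 rose (24%), 19 fell (38%) and 19 did not pass, against 21% and 37.6% of all promoter regions. Their median change was -0.07. With values centred on windows, 4 were higher and 14 lower, where 12% of all promoter regions were higher and 24.6% lower. The lists held 59 genes. No promoter region was assigned to Atm, Mdm4, Usp7, Wrap53, Sfn, Apaf1, Bbc3, Perp, Pmaip1, Polh, Polk or Cdkn1c.

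Of 12 promoter regions of p53 regulators, 4 rose and 4 fell, where 21% of all promoter regions rose and 37.6% fell. The median of the 12 was -0.12. Chek1, a kinase that signals replication stress to p53, had a region with 130, 108 and 139 normalised reads in active and 245, 232 and 241 in inactive libraries. It fell by 0.93 (adjusted p = 6.57e-11 by limma) in a window with a median of -0.53, and stood at -0.43 after centring. A second Chek1 promoter region held 69, 53 and 64 in active and 68, 68 and 74 in inactive libraries, which overlapped. Its change of -0.18 did not pass (adjusted p = 0.295 by limma), nor did its change of 0.33 after centring. Rchy1, a ubiquitin ligase for p53, rose by 0.18 as normalised and stood at -0.27 after centring on its raised window. After centring, 7 of the 12 were lower and 0 higher, where 24.6% of all promoter regions were lower and 12% higher.

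Growth arrest targets had 4 of 12 promoter regions higher and 3 lower, where 21% of all promoter regions were higher and 37.6% lower. The median of the 12 was -0.02. After centring, 0 of the 12 were higher and 3 lower, where 12% and 24.6% of all promoter regions were. Rprm, a p53-induced inhibitor of cell cycle progression, had a region centred 977 bp from its start that fell by 0.49 (adjusted p = 1.66e-05 by limma). It held 174 ± 23.9 normalised reads in active against 243 ± 8.08 in inactive libraries (SD, n = 3 each). A second Rprm promoter region, nearer the start at 141 bp, fell by 0.29 (adjusted p = 0.0157 by limma), a call lost after centring (-0.09, adjusted p = 0.485). Plk2, a polo-like kinase induced by stress, rose by 0.25 as normalised and stood at -0.12 after centring. Among apoptosis targets, 2 of 10 rose and 4 fell, with a median of -0.0032. After centring, 2 of the 10 were higher and 1 lower, beside the same shares of all promoter regions. Bcl2l11, the gene of the death activator Bim, rose to 198 ± 17.4 in active against 138 ± 2.89 in inactive libraries (0.52, adjusted p = 1.19e-05), and stood at 0.65 after centring. Pidd1, a death-domain protein that activates caspase 2, fell by 0.36 and stood at -0.27 after centring.

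Repair and metabolism targets had 1 of 9 promoter regions higher and 5 lower, where 21% of all promoter regions were higher and 37.6% lower. After centring, 2 of the 9 were higher and 1 lower, where 12% and 24.6% of all promoter regions were. The median of the 9 was -0.16, which became 0.04 after centring. Both named genes bind damaged DNA: Xpc fell by 0.26 (adjusted p = 1.30e-03 by limma) and Ddb2 rose by 0.18 (adjusted p = 0.041). Cdk inhibitors and pocket proteins had 1 of 8 higher and 3 lower, with a median of -0.07. After centring, 0 of the 8 were higher and 3 lower, beside the same shares of all promoter regions. Cdkn1b, the gene of p27, fell to 360 ± 20.98 in active against 610 ± 16.2 in inactive libraries (-0.76, adjusted p = 7.84e-14), and stood at -0.26 after centring on its lowered window.

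**Figure D4:**
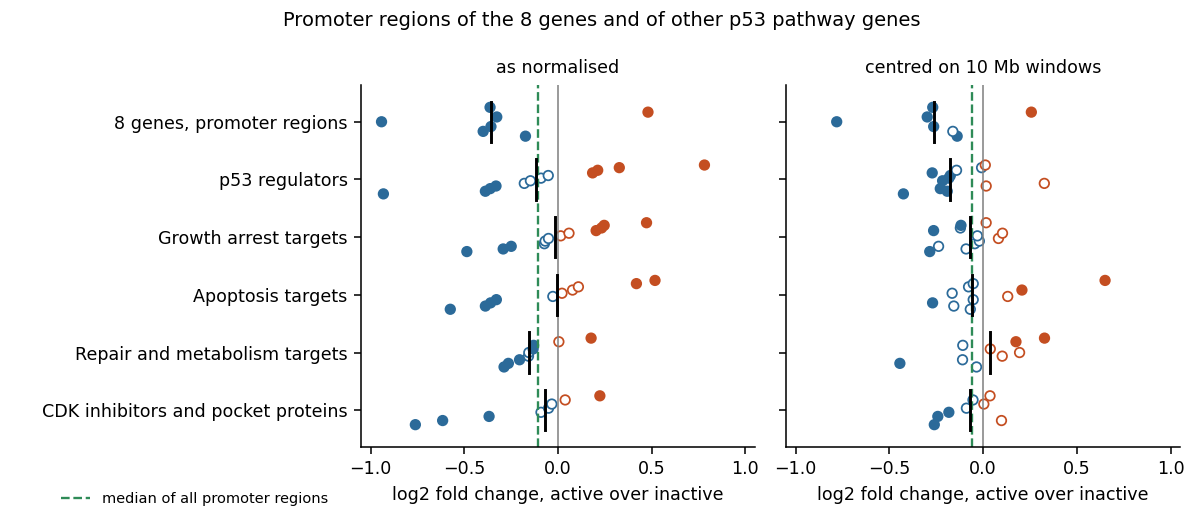
Log2 fold change, active over inactive, of each promoter region of the 8 genes and of 5 lists of other pathway genes, as normalised (left) and centred on 10 Mb windows (right). Filled points passed the threshold, blue points are below 0 and orange ones above, black bars are list medians and the dashed line is the median of all promoter regions (-0.11 as normalised). The 7 promoter regions of the 8 genes have a median of -0.36 and the other lists have medians between -0.16 and -0.0032.

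The profiles of Cdkn1a and Mdm2 over the 6 libraries resembled those of many promoters. By the root mean square difference of mean-centred log2 values, promoters close to the Cdkn1a region were those of Junb (0.025) and Bag6 (0.0274), and 1716 of 9650 promoter regions lay within 0.1. Those closest to Mdm2 were Pgm3 (8.61e-03), Rab31 (0.0156) and Kctd2 (0.0166), with 2421 promoter regions within 0.1. These are descriptions over 6 libraries that share the contrast between groups.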

How the data were processed

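ATAC-seq libraries of NIH3T3 cells, 6 in all, were grouped as 3 active and 3 inactive by their knock-in label. Per the submitters' processing notes, the build was mm39, the tools named are DESeq2 1.36.0, featureCounts, Picard 3.1.1, STAR 2.7.11a and Trimmomatic 0.39, and no order is stated. For peak calling and a Tn5 shift, settings were not given in the sources used here. The unit of the deposited table is a score. Judged from the values alone, the authors appear to have scaled each library's reads by a factor and rounded them, so no count model was used. Active replicates 1 and 2 lacked 10 and 26 of the whole numbers below 60, and the other libraries lacked 0. Each factor was estimated as the one whose rounded multiples best matched how often each whole number occurs (r from 0.859 to 0.995).

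With a pseudocount of 1, log2 values were fitted in limma 3.58.1 (R 4.3.3; trend, robust, no covariate) for the 51253 regions whose mean reached 10, leaving 1704 untested. The Benjamini-Hochberg adjustment ran over the whole set. The pseudocount understates changes of low regions. For centring, the median deviation of each 10 Mb window was subtracted in each library. The fit was also run on simulated data in which few regions changed and no chromosome shift was included. That run cannot tell how the fit behaves with the widespread changes seen here. The genes and lists were chosen with earlier results of these data known. All 8 genes were named, with each promoter, the nearby region with the most reads, and nearby regions changed by at least 1 on the log2 scale. Of each further list, regions past the threshold both with and without centring, in whichever direction after centring, were ranked by their change as normalised, and the largest rise and fall were named. Other member regions were described after their values had been seen. For likeness, Cdkn1a was represented by its only region, since none was centred within 1000 bp of its listed start. One gene that the likeness rule names is not reported here. For the p53 element, the gap of at most 1 base was chosen after matches with longer gaps had been seen. Alternatives were another pseudocount, no filter, quantile normalization, centring, no trend, a replicate block and leaving out each library. Python 3.11.15, numpy 2.4.6, pandas 2.3.3 and matplotlib 3.10.9 were used.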

Additional observations from a re-analysis of the deposited data

How the results depend on the processing

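Of 29 member regions past the threshold, 18 kept direction and call under all 12 alternatives, and none of the 29 turned its sign. Signs turned under some alternatives in member regions that passed the threshold neither before nor after. Losses of calls numbered 5 after centring on windows, 3 in limma without trend and 1 with quantile normalization. After centring, 2 gene regions off the promoter were lower, against 4 as normalised, and 4 pathway promoter regions were higher, against 12. In limma without trend 6 were higher. Within 2 Mb and without member regions, the local shift was -0.18 at Cdkn1a, 0.028 at Mdm2, -0.73 at Ccng1, -0.27 at Eda2r, -0.0028 at Phlda3 and 0.26 at Rrm2b. The cause of these moves was not tested. Libraries of equal replicate number did not deviate together from their group means (correlations of deviations 0.0014, -0.0060 and -0.016). This cannot tell whether they were prepared together. With the replicate number as a block, 6 promoter regions were lower and 1 higher, as without it, and 18 pathway promoter regions were lower and 11 higher. Low regions, above all in the shallower active libraries, limit what small changes can be told.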

Other observations

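NIH3T3 cells are commonly described as lacking the Cdkn2a locus, whose Arf product protects p53 from Mdm2. The table nevertheless listed accessible promoter regions there. The Cdkn2a region held 411, 396 and 402 normalised reads in active and 439, 394 and 457 in inactive libraries, which overlapped (-0.09 on the log2 scale, adjusted p = 0.232 by limma). After centring its change was -0.18 and passed the threshold. Its neighbour Cdkn2b held 333, 383 and 372 in active and 354, 340 and 364 in inactive libraries (0.04, adjusted p = 0.651). Promoter regions in general had a median of 249 normalised reads over all libraries.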
